A study of Mus musculus with 11 samples.

Results

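Excitatory neurons and oligodendrocytes of the tau-transgenic cortex were compared between mice bred for deletion of Ikbkb in microglia and mice with intact Ikbkb. Ikbkb encodes IKKβ, the kinase that triggers NF-κB activation, and in these animals the gene was to be removed from microglia and not from the neurons or oligodendrocytes whose RNA is described here. The gated nuclei numbered 8325 excitatory neurons and 10040 oligodendrocytes, together 18365 of the 52096 nuclei kept in 5 mice, and the whole series held 112539 kept nuclei in 11 mice. A nucleus was kept with 300 to 8000 detected genes and at most 5% mitochondrial unique molecular identifiers (UMIs, each a counted RNA molecule). It was called an excitatory neuron with 2 or more UMIs of Slc17a7 and at most 1 of Gad1 and Gad2 together, and an oligodendrocyte with at least 3 of the 5 genes Mag, Mog, Prr5l, St18 and Mobp detected and at most 1 UMI of Slc17a7. The limits on Slc17a7 exclude each other, so that no nucleus could pass both gates. Raw UMIs were summed over the gated nuclei of each mouse, so that the mouse and not the nucleus was the unit of every comparison.

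The control group, labelled ikbkb+/+;P301S+ (P301S mice hereafter), held 3 mice aged 9.15, 10.03 and 10.75 months. The deletion group, labelled ikbkb-/-;P301S+ (knockout mice hereafter), held 2 mice aged 8.39 and 9.15 months. All 5 carried the tau P301S transgene of the PS19 line, in which the prion promoter drives mutant human tau in neurons, all were labelled female, and all received tamoxifen as young adults. The knockout mice carried a Cx3cr1 CreERT2 allele, which replaces a copy of Cx3cr1, together with floxed Ikbkb. The control genotype lacks Cre but carries the floxed alleles too, so that it differs from the knockout by Cre as well as by Ikbkb in microglia. P301S replicate 3 came from a separate line that carries an inducible active IKKβ allele in place of floxed Ikbkb. Non-transgenic mice, labelled ikbkb+/+, numbered 4 and serve below as a reference range. Replicates 1 and 2, both aged 10.03 months, came from the floxed line, and replicates 3 and 4, aged 10.85 and 9.8 months, from the active IKKβ line. A further 2 mice labelled ikbkbCA;P301S+, aged 10.85 and 9.8 months, carry the tau transgene and the active IKKβ allele and entered the fits only for the estimate of the spread. The knockout mice were on average younger, and age, line and genotype cannot be fully told apart in groups of this size.

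IKKβ phosphorylates the inhibitor that holds NF-κB in the cytoplasm, after which NF-κB enters the nucleus and switches on cytokine, survival and feedback genes. Microglia with active NF-κB release cytokines, complement and other factors that neurons and oligodendrocytes can sense. Excitatory neurons answer synaptic input with a wave of activity-induced transcription factors such as Fos, Egr4 and Npas4, and oligodendrocytes build and maintain myelin with a gene programme that includes Mbp and Cldn11.

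Ikbkb itself was examined first. In nuclei gated as microglia, the level of Ikbkb in CPM (UMIs scaled to the effective library size by TMM, as for every single gene here; summed marker levels are plain CPM without TMM) was 99.3, 98.9 and 112 in the P301S mice and 92.6 and 95.5 in the knockout mice, against 101 to 124 in the non-transgenic mice. Both knockout mice lay below every P301S mouse, but the difference was small, -0.15 ± 0.16 (SE) on the log2 scale, and was not called by edgeR (adjusted p = 0.986 among 10730 genes tested). The kit counts 3′ ends, the authors also counted intronic reads, and the part of Ikbkb removed by Cre was not given in the sources used here, so that this level does not check the deletion. Outside microglia the values overlapped: 43.2, 41.1 and 47.6 CPM in P301S excitatory neurons against 45.0 and 46.3 CPM in knockout ones, and 58.8, 68.8 and 68.9 CPM in P301S oligodendrocytes against 63.5 and 68.6 CPM in knockout ones for Ikbkb.

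The transgene label was checked with Gm43049, a transcript model counted almost wholly in transgenic libraries. Its level in excitatory neurons was 10.8, 14.4 and 9.25 CPM in the P301S mice and 7.54 and 7.15 CPM in the knockout mice, and at most 0.0819 CPM in the non-transgenic mice. Both knockout mice thus lay below every P301S mouse in neurons, an order found in 13.7% of all genes tested. In oligodendrocytes the groups overlapped. Whether transgene expression differed between the groups was not tested. Mapt, the endogenous mouse tau gene, overlapped between the genotypes in both cell types, with 520, 538 and 592 CPM against 573 and 610 CPM in excitatory neurons and 1406, 1459 and 1663 CPM against 1552 and 1578 CPM in oligodendrocytes. Prnp was near the detection limit, between 0.103 and 0.401 CPM in the excitatory neurons of the 5 mice. Cx3cr1, the gene that carries the Cre insertion, was at 5.52, 6.97 and 8.53 CPM in P301S excitatory neurons and at 4.88 and 4.60 CPM in knockout ones (log2 difference -0.56, edgeR adjusted p = 0.578), while in the microglia gate it overlapped, at 482, 418 and 571 against 582 and 498 CPM.

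The sums were deep for neurons and shallower for oligodendrocytes, with 14686139 to 31336632 UMIs per mouse in excitatory neurons and 5064784 to 8553090 in oligodendrocytes. More UMIs were detected per nucleus in the knockout mice in both cell types. Libraries also differed in barcodes, 7500 in knockout replicate 2 and 10578 to 12315 in the other 4 mice, at totals of 72007219 to 89213153 UMIs, so that RNA content and reads per barcode cannot be told apart. The median excitatory neuron had 10865, 10749 and 11640.5 UMIs in the P301S mice and 14449 and 16287.5 in the knockout mice, which lay above every P301S mouse and above the non-transgenic range of 11657 to 13146 (exact permutation test, two-sided p = 0.1, the smallest that 3 against 2 mice allow). The median oligodendrocyte had 1964, 2178 and 2656 UMIs against 2764 and 3016 (exact p = 0.2). Summed excitatory markers in the excitatory gate overlapped between genotypes at 4736 to 4969 CPM, with all 10 markers detected, and all 12 oligodendrocyte markers were detected in the oligodendrocyte gate at a summed 13632 to 18238 CPM. Both marker lists include genes on which the nuclei were gated, so that their detection is no independent check of identity. The oligodendrocyte sums also held RNA of other cells, with 870.6 to 1462 CPM of excitatory markers and 2450 to 2999 CPM of inhibitory markers. At most 0.424% of cell barcodes were shared between any pair of libraries.

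Excitatory neurons made up a larger share of the knockout nuclei. The share was 16.0%, 10.6% and 13.7% in the P301S mice (mean 13.4% ± 2.70 SD) and 18.4% and 24.9% in the knockout mice (21.6% ± 4.59 SD). The groups did not overlap, and the exact two-sided p of 0.1 is again the smallest possible. In the non-transgenic mice the share ran from 17.04% to 26.1%, which covers both knockout values. A gate on UMIs passes more nuclei where nuclei are deeper, so the share was taken again among nuclei of at least 1000 UMIs, each thinned to 1000, which left out 182 to 658 nuclei per mouse. The gates were changed as well, to 1 or more Slc17a7 UMIs with no Gad1 or Gad2 UMI and at most 1 of the 5 oligodendrocyte genes for neurons, and to at least 2 of the 5 genes with no Slc17a7 UMI for oligodendrocytes. The excitatory share was then 6.19%, 4.54% and 5.61% (mean 5.44%) against 6.49% and 7.23% (mean 6.86%; exact p = 0.2), a difference of 1.41 percentage points on this lower base where it had been 8.18 before, with the knockout mice still above all P301S mice. Of the nuclei that just passed, with exactly 2 Slc17a7 UMIs, there were 1026, 766 and 702 in the P301S mice and 861 and 696 in the knockout mice. Just outside, with 1 Slc17a7 UMI, stood 1895, 1756 and 1270 against 1548 and 1040 nuclei. The oligodendrocyte share overlapped, at 16.3%, 23.9% and 19.2% against 18.8% and 16.8% (exact p = 0.7).

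**Figure D1:**
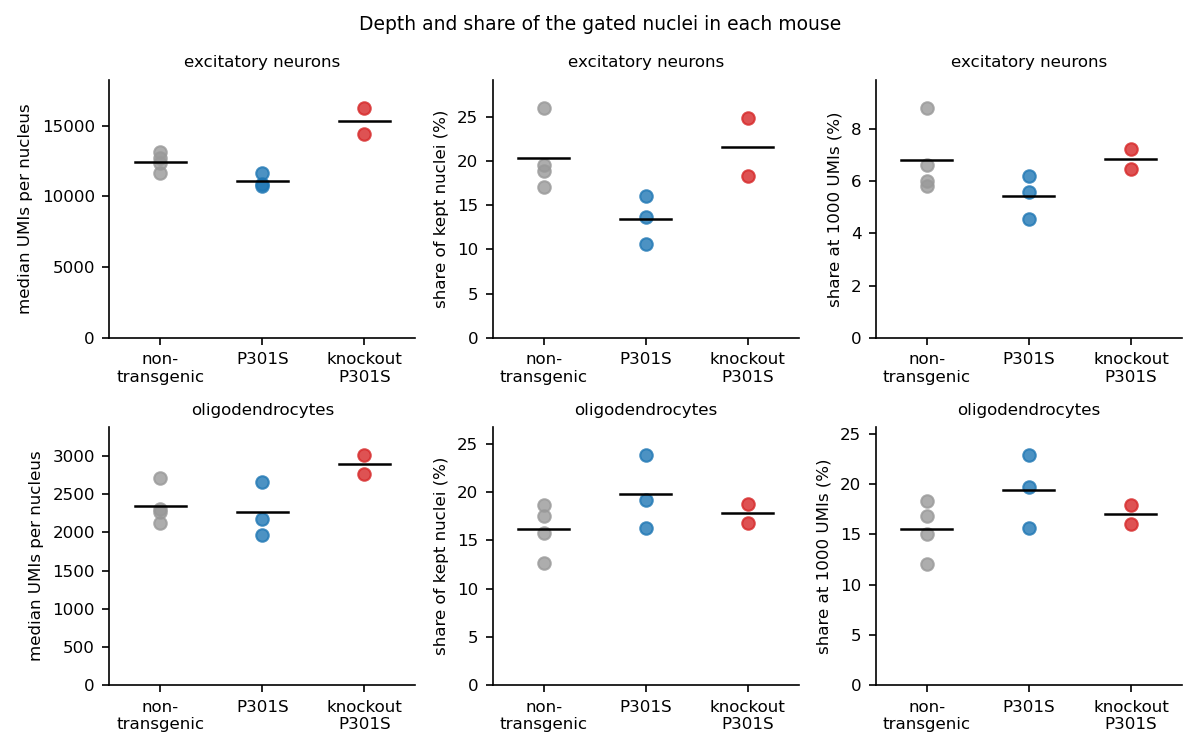
Median UMIs per nucleus, share of kept nuclei and share after thinning each nucleus of at least 1000 UMIs to 1000 with the changed gates, for excitatory neurons (top) and oligodendrocytes (bottom). Points are mice, lines are group means, and both knockout points lie above all 3 P301S points in the excitatory panels.

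No gene was called in excitatory neurons. Of 17208 genes tested by edgeR over all 11 mice, 0 passed (0.0%), which took an adjusted p (Benjamini-Hochberg) below 0.05 and a log2 difference of 0.1 or more in size, and the lowest adjusted p was 0.547. At an unadjusted p under 0.05 there were 647 genes higher in the knockout mice (3.76%) and 797 lower (4.63%). Together these were 1444 genes, and the number was 648 with age as a covariate and 2883 with the line as a covariate. DESeq2 called 1 gene, Pcsk2os2, and gave 1171 genes an unadjusted p under 0.05. By edgeR the count became 10 in the floxed line alone (3 higher, 7 lower). On that line it was 20 with the replicate block (6 higher, 14 lower) and 1 with the crossed block. The spread between mice limited the comparison: for the 8020 genes of at least 10 CPM, the 95% interval of a log2 difference extended a median of 0.229 to either side. The median gene differed between a P301S and a knockout mouse by 0.107 to 0.165 on the log2 scale, against 0.0972 to 0.148 between P301S mice and 0.0951 between the 2 knockout mice. These p-values measure the spread between individual mice, and knockout mice numbered only 2.

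The lowest p in excitatory neurons belonged to Pcsk2os2, a transcript antisense to the prohormone convertase gene Pcsk2 (chr2:143747583-143795965, minus strand, mm10). Its level was 20.4, 22.5 and 19.98 CPM in the P301S mice and 11.4 and 9.61 CPM in the knockout mice. Every knockout value lay below every P301S and every non-transgenic value (15.5 to 19.8 CPM), with a log2 difference of -0.9986 ± 0.18 (SE; edgeR adjusted p = 0.547, DESeq2 adjusted p = 0.00385). In the floxed line alone its edgeR adjusted p was 0.0538, and it was 0.0348 with the replicate block and 0.0838 with the crossed block on that line. Whether reads were assigned by strand was not stated, so that reads of Pcsk2 and of its antisense transcript may not be separable.

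A second antisense transcript, Srrm4os (chr5:116438720-116465487), is named for lying opposite the gene of the neuronal splicing factor Srrm4. It was at 13.1, 14.5 and 13.6 CPM against 8.76 and 9.16 CPM (log2 difference -0.61). Gm26904, a long non-coding RNA on chr17:46471501-46825221, was at 69.3, 81.0 and 74.5 CPM against 48.5 and 54.4 CPM (-0.54). The other low-p genes on this side code for proteins. Dstn, which encodes the actin-severing protein destrin, was at 22.1, 19.3 and 20.1 CPM against 14.3 and 14.7 CPM (-0.50). Mex3c, an RNA-binding ubiquitin ligase, was at 20.5, 22.2 and 23.0 CPM against 14.2 and 15.8 CPM (-0.54). In all 5 genes both knockout mice were below all P301S mice, an order found in 13.7% of all genes tested, and none was called (edgeR adjusted p = 0.547 for each).

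On the higher side stood Abca7 (chr10:79996494-80015572), a lipid transporter and Alzheimer's disease risk gene. Its level in excitatory neurons was 17.3, 16.0 and 16.0 CPM in the P301S mice and 22.2 and 22.8 CPM in the knockout mice, above the non-transgenic range of 16.4 to 19.0 CPM (log2 difference 0.46 ± 0.09 SE). In oligodendrocytes of the same mice Abca7 was at 14.8, 14.2 and 13.9 CPM against 20.5 and 23.9 CPM (0.63 ± 0.15 SE). Neither was called (edgeR adjusted p = 0.547 and 0.332). Both sums come from the same libraries and are therefore not independent.

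Rnf207, which encodes a RING finger protein, was at 14.7, 15.7 and 15.8 CPM against 22.6 and 25.2 CPM in excitatory neurons (0.63). Cuedc2, whose product acts on IKK signalling and on protein turnover, was at 12.8, 13.3 and 13.7 CPM against 18.2 and 19.0 CPM (0.49). Haghl was at 16.0, 16.1 and 15.5 CPM against 19.6 and 22.8 CPM (0.42). The fifth gene, 1700030K09Rik, was at 12.8, 12.6 and 12.1 CPM against 16.2 and 16.4 CPM (0.38). In each the knockout mice lay above all P301S mice, as they did in 13.5% of all genes tested.

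**Figure D2:**
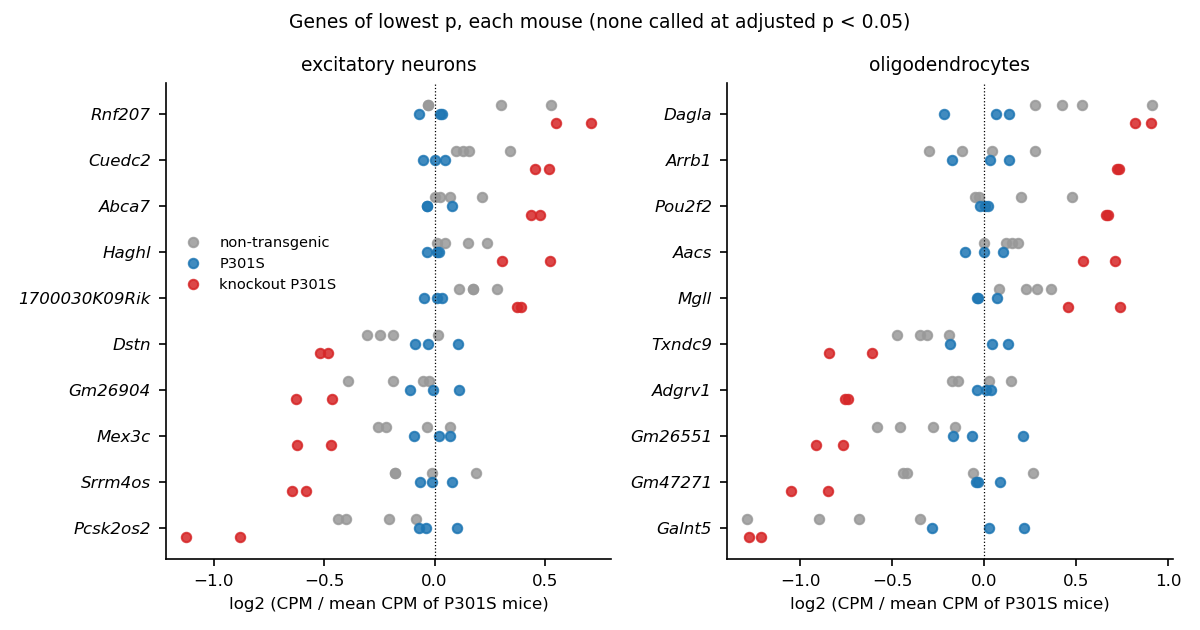
Log2 of each mouse's CPM over the mean of the 3 P301S mice, for the 5 genes of lowest p in each direction and cell type. Grey, blue and red points are non-transgenic, P301S and knockout mice; red lies outside blue throughout because these genes were picked for low p, and none was called.

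Activity-induced genes, transcribed within minutes to hours of neuronal firing, were the functional list with the lowest median in excitatory neurons. Of 45 members tested, 35 had a negative log2 difference, the median was -0.27 against -0.01 for all genes, 10 members were lower at an unadjusted p under 0.05 and 0 higher (background 4.63% and 3.76%), and none was called. The members lower at that p were Egr4, Fosb, Dusp1, Npas4, Ptgs2, Gadd45b, Atf3, Dusp5, Btg2 and Fos. Leaving out knockout replicate 1 moved the list median to -0.16, the highest of 15 alternatives, and the lowest was -0.36 in nuclei with upper-layer markers. The summed level of the list overlapped, at 1737, 1564 and 1858 CPM in the P301S mice and 1641 and 1666 CPM in the knockout mice.

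Egr4, a zinc-finger factor of the immediate early class, was at 5.27, 4.81 and 6.99 CPM in the P301S mice and at 1.40 and 3.61 CPM in the knockout mice, with 5.45 to 6.15 CPM in the non-transgenic mice (log2 difference -1.18 ± 0.30 SE, edgeR adjusted p = 0.547). Npas4, which is switched on by calcium influx and shapes inhibitory input, was at 15.0, 16.7 and 17.6 CPM against 6.07 and 12.6 CPM, and at 17.2 to 30.2 CPM in the non-transgenic mice (-0.81). For both, knockout replicate 1 was the lowest mouse and neither knockout mouse reached a P301S value.

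Dusp1, a phosphatase that ends MAP kinase signals, was at 4.87, 4.95 and 10.2 CPM against 2.22 and 3.61 CPM (-1.20). Fosb, a partner of Jun in the AP-1 factor, was at 3.51, 2.51 and 3.80 CPM against 1.26 and 1.76 CPM (-1.12). Fos overlapped, at 3.66, 5.02 and 6.88 CPM against 1.70 and 3.96 CPM (-0.87). Dusp1 and Fosb kept their groups apart, but the absolute levels of all 3 were low.

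Better-expressed members of the list varied between the knockout mice. Arc, which acts in the removal of AMPA receptors, was at 18.0, 14.4 and 27.6 CPM against 6.14 and 23.1 CPM in excitatory neurons. Egr1 was at 24.7, 28.7 and 41.2 CPM against 11.97 and 30.3 CPM. Bdnf, which encodes a growth factor for synapses, was at 28.6, 36.5 and 40.2 CPM against 33.2 and 21.4 CPM. In Arc and Egr1 the low value belonged to knockout replicate 1 and in Bdnf to knockout replicate 2, and all 3 genes overlapped between the groups. In oligodendrocytes the same list had a median of -0.07, with 19 of 41 members positive.

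Several of these genes carry a cyclic AMP response element, the sequence bound by CREB, close to the transcription start. The motif TGACGTNA was searched on both strands in the 250 bases before each RefSeq start site (GRCm38.p6) and was present in 11 of the 36 activity-list genes with an entry (20.4% of their 54 promoters), against 2.52% of all 32851 promoters. The examples below were chosen after the values were seen, because their genes were among the 10 members lower at an unadjusted p under 0.05. Each is given 5′ to 3′ along the gene's strand with the match in capitals, which is a match of letters and not evidence of binding.
Dusp1, chr17:26508586-26508637, minus strand: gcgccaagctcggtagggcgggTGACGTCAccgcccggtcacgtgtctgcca
Btg2, chr1:134079292-134079343, minus strand: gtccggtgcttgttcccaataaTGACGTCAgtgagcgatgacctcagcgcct
Egr4, chr6:85513672-85513723, minus strand: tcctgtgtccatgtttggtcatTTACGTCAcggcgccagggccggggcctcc

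Chaperone and unfolded-protein genes were centred close to all genes in excitatory neurons (median -0.05 against -0.01). Of 49 tested, 31 were negative, and Herpud1, Hsp90aa1, Manf, Atf3 and Dnajb1 were lower at an unadjusted p under 0.05 with 0 higher, beside 4.63% and 3.76% of all genes. Hsp90aa1, an inducible chaperone that also binds tau, was at 15.9, 19.0 and 23.6 CPM against 12.2 and 15.6 CPM (log2 difference -0.49). Herpud1, induced by endoplasmic reticulum stress, was at 9.18, 10.4 and 9.97 CPM against 6.34 and 7.89 CPM (-0.46). In both genes the knockout mice lay below all P301S mice, and edgeR's adjusted p was 0.547.

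Synaptic genes were centred close to 0 in excitatory neurons. Of the 68 synapse organizers tested, 33 were positive (median -0.00), with Adgrl1 and Ephb1 higher and Slitrk4 lower at an unadjusted p under 0.05. Adgrl1, a presynaptic latrophilin, was at 116, 133 and 134 CPM against 150 and 172 CPM (log2 difference 0.34). The study named synapse formation in these same samples, so that this list is not independent evidence of a direction. Glutamate receptors and their scaffolds had 31 of 49 positive (median 0.06), with Grm4 alone past that p, at 22.4, 19.7 and 22.3 CPM against 28.6 and 37.1 CPM and within the non-transgenic range of 19.6 to 39.4 CPM.

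The machinery of vesicle release had 30 of 51 members positive (median 0.04), with Syn1 past an unadjusted p of 0.05, at 201, 198 and 192 CPM against 217 and 225 CPM (log2 difference 0.17). Voltage-gated channels had 27 of 50 positive (median 0.02). In this list Cacna1a, the pore of the P/Q-type calcium channel, was at 1013, 1056 and 940 CPM against 1153 and 1257 CPM (0.26). GABA receptors had 8 of 20 positive (median -0.07) and 0 past that p. The abundant presynaptic gene Snap25 illustrates the flat centre, at 1149, 1011 and 965 CPM against 1058 and 974 CPM.

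Endocannabinoid and purinergic genes had 15 of 25 members positive in excitatory neurons (median 0.05). The study named these pathways from these mice too, but in inhibitory neurons. Faah, which degrades anandamide, was at 89.3, 82.2 and 86.2 CPM against 102 and 119 CPM (log2 difference 0.37), and Napepld, which releases it from its precursor, was at 14.4, 12.96 and 13.4 CPM against 11.8 and 10.4 CPM (-0.30). The knockout mice thus lay above for the degrading enzyme and below for the synthetic one, with edgeR adjusted p of 0.547 and 0.571. P2ry12 (9.68, 8.99 and 11.8 against 8.63 and 6.29 CPM) and P2ry14 were lower at an unadjusted p under 0.05; P2ry12 and Cx3cr1 are microglial markers, and the 14 microglial markers in the neuronal sums had a median of -0.27 (0.19 in the floxed line alone) with summed levels that overlapped, at 42.9, 47.2 and 75.7 against 54.4 and 42.7 CPM, a difference whose part in these genes was not tested.

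Among 40 tau genes and tau kinases, 21 were positive (median 0.02). Gsk3a, a tau kinase, was at 11.8, 12.1 and 11.2 CPM against 14.4 and 16.2 CPM in excitatory neurons (log2 difference 0.39). Cdk5, a neuronal kinase that also phosphorylates tau, was at 16.8, 18.2 and 17.4 CPM against 19.4 and 22.9 CPM (0.28). Ep300, the acetyltransferase that modifies tau, was at 102, 97.3 and 98.0 CPM against 84.5 and 88.5 CPM (-0.19). Each kept its groups apart and passed an unadjusted p of 0.05, and none was called (edgeR adjusted p = 0.547, 0.594 and 0.586). Of the 40 members, 2 were higher and 1 lower at that p, beside 3.76% and 4.63% of all genes tested. Both knockout mice lay above all P301S mice in 10 members and below in 6, orders found in 13.5% and 13.7% of all genes.

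The NF-κB pathway list was centred at 0.01 in excitatory neurons, with 20 of 38 members positive. Tab1 was higher at an unadjusted p under 0.05, and Otulin, Irak4 and Bcl10 were lower. Otulin, a deubiquitinase that restrains NF-κB signalling, was at 47.2, 50.9 and 49.8 CPM in the P301S mice and at 36.9 and 38.8 CPM in the knockout mice (log2 difference -0.38 ± 0.12 SE, edgeR adjusted p = 0.547). The DNA-binding subunit gene Nfkb1 overlapped, at 78.0, 81.6 and 87.2 CPM against 85.6 and 81.6 CPM. The feedback inhibitor Nfkbia was at 2.31, 1.603 and 1.75 CPM against 1.19 and 1.597 CPM, so that the groups met at their ends.

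Other lists of excitatory neurons stood near the background, in which 3.76% of genes were higher at an unadjusted p under 0.05 and 4.63% lower. Receptors for microglial ligands had 28 of 50 positive (median 0.04), with the cytokine receptor genes Il10rb and Il4ra higher at an unadjusted p under 0.05 but at levels of only 0.301 to 0.818 and 0.925 to 2.27 CPM. Interferon-response genes had 15 of 38 positive (median -0.08, but -0.25 without knockout replicate 1 and 0.080 without knockout replicate 2), with Irf3 higher at 8.97 and 8.62 CPM against 6.72, 5.85 and 6.99 CPM. The circadian list was centred at -0.01 (9 of 20 positive), and its member Ciart, a repressor of the clock, was at 10.2, 9.96 and 16.0 CPM against 8.46 and 5.52 CPM (log2 difference -0.79).

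Transcripts of the mitochondrial genome had 12 of 13 members positive in excitatory neurons (median 0.54, but 0.21 without knockout replicate 1 and 0.82 without knockout replicate 2), with summed levels of 204, 175 and 204 CPM against 344 and 222 CPM; in nuclei these transcripts are carried over from cytoplasm. Nuclear genes of the respiratory chain had 32 of 56 positive (median 0.02) and ribosomal proteins 28 of 56 (median 0.00). Astrocyte markers had a median of 0.31 with 8 of 10 positive, and their sums overlapped, at 814 to 976 CPM against 861 and 1001 CPM. Other marker sums kept the groups apart in the excitatory gate. Striatal neuron markers were at 1208, 1236 and 1233 CPM against 1399 and 1681 CPM, layer 6 markers at 1994, 2078 and 2287 CPM against 1873 and 1973 CPM, and the myelin list at 2456, 2492 and 2728 CPM against 2761 and 2762 CPM. The striatal sum did not reflect most of its members, since 6 of 8 were negative (median -0.05). Hippocampal neuron markers had a median of -0.62 over 6 tested (-0.026 in upper-layer nuclei). Their sums overlapped, at 163, 181 and 263 CPM against 186 and 185 CPM. The part of these cell mixtures in the neuronal results was not tested.

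No gene was called in oligodendrocytes either. Of 14375 genes tested by edgeR, 0 passed (0.0%), with a lowest adjusted p of 0.332, and DESeq2 called 0 as well. At an unadjusted p under 0.05, 875 genes were higher in the knockout mice (6.09%) and 903 lower (6.28%) by edgeR, and 1285 passed in either direction by DESeq2. The 95% interval extended a median of 0.287 to either side on the log2 scale over 8736 genes of at least 10 CPM. Both knockout mice lay above all P301S mice in 16.0% of genes and below in 16.3%. The count became 205 when predicted doublets were left out and 320 when low-count genes were kept in the test, and it was 2 to 4 in the floxed line alone, with the replicate block or the crossed block on that line, and without knockout replicate 1.

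The lipid mediator genes Dagla and Mgll were both among the 5 genes of lowest p on the higher side in oligodendrocytes. Dagla (chr19:10245265-10304877) makes the endocannabinoid 2-arachidonoylglycerol. It was at 25.5, 24.3 and 19.97 CPM in the P301S mice and at 43.6 and 41.0 CPM in the knockout mice, within reach of the non-transgenic range of 28.1 to 43.8 CPM (log2 difference 0.87 ± 0.17 SE, edgeR adjusted p = 0.332).

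Mgll (chr6:88724412-88828360) degrades that lipid. It was at 64.9, 60.5 and 60.2 CPM against 84.7 and 103 CPM, with 65.4 to 79.4 CPM in the non-transgenic mice (0.60 ± 0.12 SE, adjusted p = 0.332). Mgll stood at 0.37, and Dagla at 0.71, when doublets were left out and nuclei with any Slc17a7, Gad1 or Gad2 UMI or more than 1 UMI over microglial, astrocyte and precursor markers were excluded (the stricter nuclei hereafter). In excitatory neurons Dagla was at 93.7, 89.8 and 117 CPM against 119 and 145 CPM, and Mgll at 183, 170 and 203 CPM against 205 and 226 CPM. Both genes are expressed at higher levels in neurons than in oligodendrocytes of the same mice.

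Aacs (chr5:125475814-125517410), which feeds ketone bodies into lipid synthesis, was at 22.8, 24.5 and 21.2 CPM against 33.1 and 37.4 CPM, above the non-transgenic range of 22.8 to 25.9 CPM (0.62 ± 0.12 SE). Arrb1, an arrestin that ends receptor signals, was at 25.7, 23.9 and 20.7 CPM against 38.8 and 38.6 CPM (0.73). Pou2f2, a POU-domain transcription factor, was at 26.3, 25.6 and 26.1 CPM against 41.1 and 41.4 CPM (0.67). The knockout mice lay above all P301S mice in each, and edgeR's adjusted p was 0.332. In the stricter nuclei, Arrb1 stood at 0.33, Aacs at 0.59 and Pou2f2 at 0.79.

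Adgrv1 (chr13:81095068-81633154), a very large adhesion receptor, had the lowest p in oligodendrocytes. It was at 24.9, 25.3 and 24.0 CPM in the P301S mice and at 14.6 and 14.8 CPM in the knockout mice, below the non-transgenic range of 21.9 to 27.3 CPM (log2 difference -0.75 ± 0.13 SE, edgeR adjusted p = 0.332). Galnt5 (chr2:57997884-58045860), an enzyme that starts O-linked glycosylation, was at 25.3, 35.8 and 31.3 CPM against 13.3 and 12.7 CPM (-1.25 ± 0.26 SE), with 12.6 to 24.2 CPM in the non-transgenic mice. For Adgrv1 the knockout mice stood below both other groups, whereas for Galnt5 they reached the low end of the non-transgenic range.

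Txndc9, a thioredoxin-like cofactor of protein folding, was at 20.4, 25.3 and 23.9 CPM against 12.9 and 15.2 CPM in oligodendrocytes (-0.74). Gm26551, a long non-coding RNA on chr11:51949882-52269514, was at 29.7, 36.0 and 27.7 CPM against 18.3 and 16.5 CPM (-0.84). Gm47271, an antisense transcript on chr9:58979251-59033856, was at 25.1, 25.3 and 27.5 CPM against 14.4 and 12.5 CPM (-0.94). None of the 3 was called by edgeR (adjusted p = 0.332), whereas with doublets left out all 3 were (adjusted p = 0.0452, 0.0452 and 0.0389 for Txndc9, Gm26551 and Gm47271). Unlike Mgll and Arrb1, the genes on this side kept most of their size in the stricter nuclei, at -0.87 for Adgrv1, -1.13 for Galnt5, -0.83 for Txndc9, -0.69 for Gm26551 and -0.87 for Gm47271.

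Myelin and oligodendrocyte identity genes were mostly below 0. Of 70 members tested, 53 were negative, the median was -0.16 against 0.00 for all genes, 10 were lower and 1 higher at an unadjusted p under 0.05 (background 6.28% and 6.09%), and none was called. Both knockout mice lay below all P301S mice in 17 of the 70 members and above in 3, orders found in 16.3% and 16.0% of all genes tested. With age as a covariate the median was 0.04, so that the sign of this list was not stable. The knockout mice were on average younger, and the parts of age and genotype in this list cannot be told apart.

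Cldn11, the tight-junction claudin of myelin, was at 374, 346 and 445 CPM in the P301S mice and at 276 and 278 CPM in the knockout mice (log2 difference -0.49), and Il33, an alarmin cytokine made by mature oligodendrocytes, at 352, 319 and 327 CPM against 237 and 266 CPM (-0.40). In Cldn11 and Il33 the knockout mice lay inside or just below the non-transgenic values of 260 to 363 and 244 to 306 CPM.

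Mbp, a main myelin protein gene, did not share this pattern, at 2630, 2612 and 2932 CPM against 2917 and 2734 CPM (0.05). Gpr37, a receptor of myelinating cells, was at 106, 141 and 133 CPM against 95.2 and 85.3 CPM (-0.49), and Ndrg1 was the member higher at an unadjusted p under 0.05, at 126, 127 and 117 CPM against 146 and 147 CPM (0.25). Opalin, Aspa, Ermn and Cd9 were also lower at that p. In P301S replicate 1 Opalin was at 148 CPM, below both knockout mice at 170 and 164 CPM, so that its groups overlapped. The 12 oligodendrocyte markers that overlap this list had a median of -0.32 (-0.038 with age as a covariate), with summed levels of 14285, 15885 and 18238 against 14427 and 13632 CPM. They include the gate genes Mag, Mog, Prr5l, St18 and Mobp, and a gate on detected genes depends on depth. Its part in this median was not tested.

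**Figure D3:**
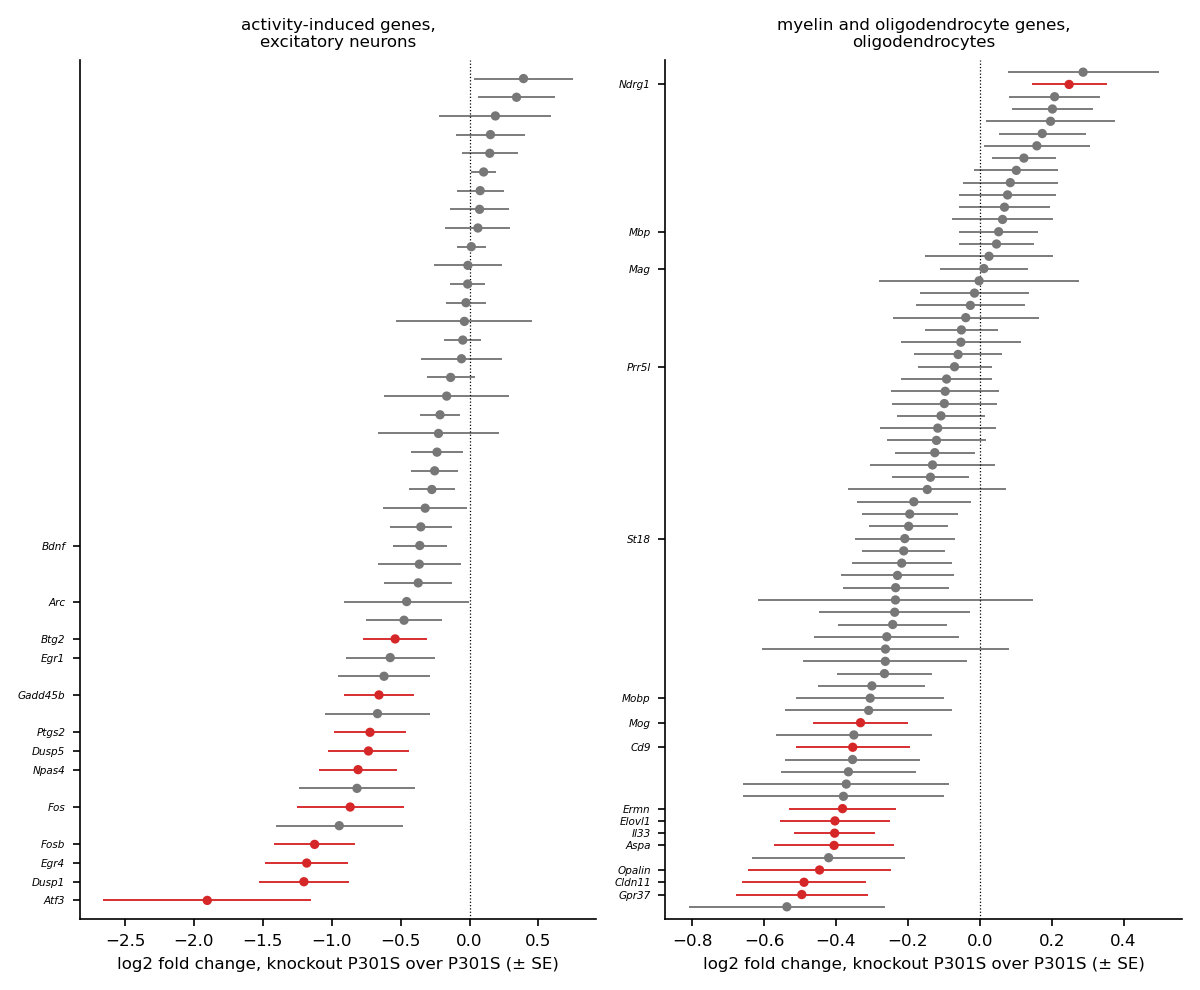
Log2 difference between knockout and P301S mice with its standard error for tested members of the activity-induced list in excitatory neurons (left) and of the myelin list in oligodendrocytes (right), with the genes named in the text labelled. Red marks an unadjusted edgeR p under 0.05; most points lie left of 0 in both panels, and none was called after adjustment.

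Neuronal gene lists lay above 0 in the oligodendrocyte sums. Vesicle release had 42 of 50 members positive (median 0.18), glutamate receptors and scaffolds 39 of 48 (0.28), voltage-gated channels 46 of 50 (0.25), synapse organizers 47 of 68 (0.14), GABA receptors 17 of 20 (0.17) and endocannabinoid and purinergic genes 19 of 24 (0.15). At an unadjusted p under 0.05, 13, 10, 9, 6, 1 and 4 of them were higher, and 0, 0, 0, 1, 0 and 1 lower, beside 6.09% and 6.28% of all genes tested. With age as a covariate these medians became 0.054, 0.045, 0.040, -0.062, -0.027 and 0.049 in the same order, so that 2 of the 6 changed sign and the others came close to 0. With doublets left out they became 0.50, 0.53, 0.53, 0.28, 0.35 and 0.34. Astrocyte markers were positive in 10 of 10 (median 0.57, and 0.19 with age as a covariate), with summed levels of 1127, 813 and 974 CPM in the P301S mice and 1314 and 1406 CPM in the knockout mice. The sums of oligodendrocyte precursor markers (455, 471 and 426 against 506 and 538 CPM) and of endothelial and mural markers (21.1, 28.4 and 26.6 against 48.6 and 35.5 CPM) were also higher in both knockout mice. Excitatory markers overlapped in sum, at 1425, 1204 and 871 against 1303 and 1462 CPM, and so did inhibitory markers. Of the excitatory markers 9 of 10 were positive (median 0.26, and 0.014 with age as a covariate), and of the inhibitory ones 7 of 13 (median 0.08). Striatal neuron markers (857, 858 and 717 against 916 and 1154 CPM) and near-projecting and claustrum markers (353, 332 and 368 against 460 and 387 CPM) were higher in both knockout mice. The part of RNA from other cells in these lists, and in the lower myelin list of the same sums, was not tested.

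Leaving out predicted doublets brought 205 calls in oligodendrocytes, 183 higher (1.39% of 13190 genes) and 22 lower (0.167%). The number left out was set by the barcodes of each library and was lowest in knockout replicate 2 (442 of 7362 kept nuclei). Within the oligodendrocyte gate, 194, 357 and 202 nuclei were left out in the P301S mice and 220 and 135 in the knockout mice. The part of this rule in the calls was not tested. All of the 10 lowest-p genes described above except Dagla were among them, with adjusted p from 0.0285 for Pou2f2 to 0.0490 for Aacs. The higher genes included the astrocyte genes Slc1a2 and Gpc5, the precursor gene Pdgfra and the neuronal genes Rbfox3 and Grin2b. Of the 183, 180 (98.4%) had a higher level over all P301S nuclei than in P301S oligodendrocytes, against 41.0% of all genes tested, and of the 22 lower genes 0 did. All 205 had the same sign with doublets kept. In the stricter nuclei, 202 of the genes could be tested, 202 kept their sign and 0 were called. Their median log2 difference was 0.92 for the 183 higher genes with doublets left out, 0.56 in the stricter nuclei and 0.42 with doublets kept, and that of the 22 lower genes was -0.74 with doublets left out and -0.69 in the stricter nuclei. The glutamate receptor list stood at 0.31 and the channel list at 0.34 in the stricter nuclei, unlike their values with age as a covariate (0.045 and 0.040), while the astrocyte marker median went from 0.57 to 0.19. The stricter rule limits the astrocyte markers Slc1a3 and Aqp4 themselves, so that the fall of this median is partly set by the filter.

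**Figure D4:**
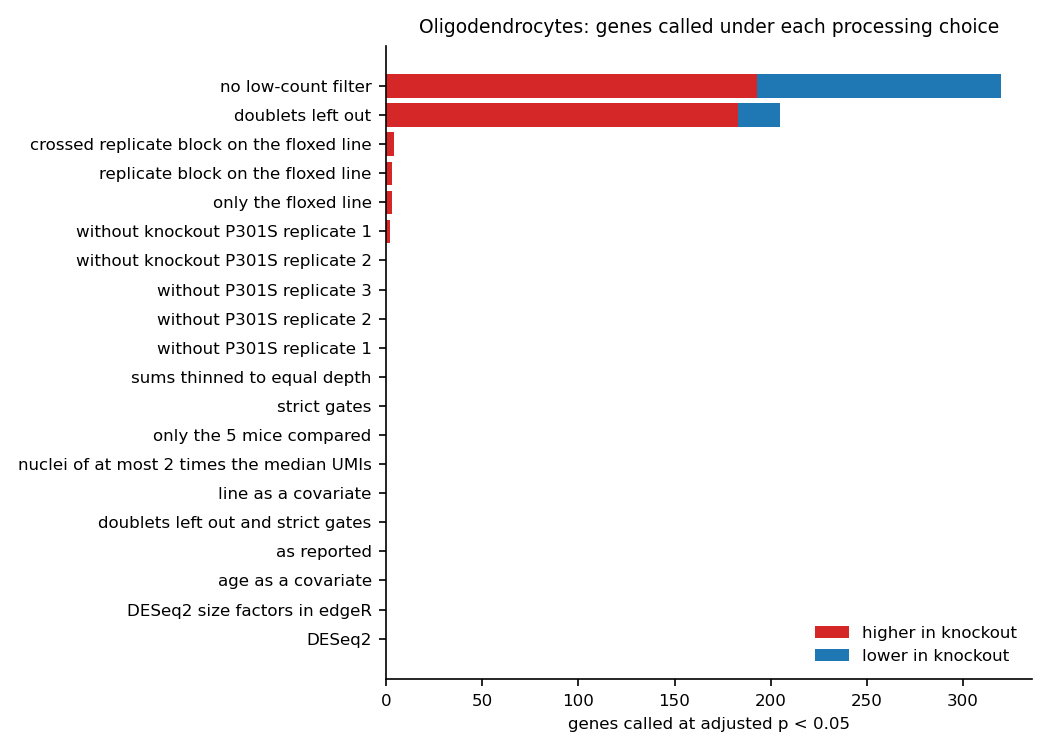
Number of genes called in oligodendrocytes at an adjusted p under 0.05 for the reported fit and each alternative. Red and blue bars are genes higher and lower in knockout mice; the count was 205 with doublets left out, 320 with no low-count filter and at most 4 under all others.

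Slc1a2, the glial glutamate transporter, gives the pattern in a single gene. It was at 325, 186 and 227 CPM in the oligodendrocyte sums of the P301S mice and at 368 and 460 CPM in those of the knockout mice, with a non-transgenic range of 214 to 378 CPM (log2 difference 0.75). Its astrocytic partner Gja1, a gap-junction connexin, was at 5.46, 3.75 and 8.04 CPM against 10.0 and 11.02 CPM (0.87). Rbfox3, a neuronal splicing factor, was at 231, 215 and 167 CPM against 262 and 305 CPM (0.47). Fgfr3, an astrocyte and precursor receptor, was at 9.50, 4.56 and 5.41 CPM against 13.3 and 13.1 CPM (1.08). P301S replicate 1 was the highest P301S mouse for Slc1a2, Rbfox3 and Fgfr3, and every knockout mouse exceeded it.

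NF-κB genes in oligodendrocytes were negative in 22 of 35 members (median -0.11), with Birc2, Otulin, Irak4, Ikbkg and Bcl3 lower at an unadjusted p under 0.05, beside 6.28% of all genes. Birc2, a ubiquitin ligase that links receptors to IKK, was at 44.5, 53.7 and 46.7 CPM in the P301S mice and at 37.0 and 34.4 CPM in the knockout mice, below the non-transgenic range of 41.8 to 47.3 CPM (log2 difference -0.44, edgeR adjusted p = 0.332). Ikbkg, the regulatory subunit of the IKK complex, was at 16.4, 16.3 and 16.2 CPM against 12.8 and 11.97 CPM (-0.39). Otulin was at 66.7, 72.8 and 64.4 CPM against 57.2 and 52.6 CPM (-0.31). Bcl3 rested on P301S replicate 3 alone, at 7.35 CPM where the other 4 mice had 0.760 to 1.10 CPM. The list median was 0.00 without knockout replicate 2.

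Some genes of the NF-κB list carry a match to the κB motif near the start, which is a match of letters and not evidence of binding. The motif GGGA, any base, TTTCC (on either strand) was found in 4 of its 34 genes with a RefSeq entry (8.70% of 46 promoters), against 0.356% of all promoters, searched as above. The pair of best-known feedback targets is shown with the match in capitals, on the gene's strand.
Nfkbia, chr12:55492648-55492698, minus strand: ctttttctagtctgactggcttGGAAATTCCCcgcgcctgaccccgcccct
Nfkb2, chr19:46305683-46305736, plus strand: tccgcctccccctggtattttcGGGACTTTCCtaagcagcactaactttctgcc
In oligodendrocytes Nfkbia varied widely within the P301S group, at 21.4, 5.27 and 9.02 CPM, and overlapped the knockout values of 6.597 and 10.4 CPM.

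The best-known genes of the disease-associated oligodendrocyte state overlapped between the genotypes. Of 34 tested, 22 were negative (median -0.14). The median was 0.038 with age as a covariate and -0.29 without knockout replicate 1, so that its sign was not stable. C4b, the complement component, was at 31.3, 17.4 and 131 CPM against 88.2 and 11.2 CPM. Serpina3n, a secreted protease inhibitor, was at 2.63, 0.819 and 4.99 CPM against 3.71 and 0.760 CPM, and the class I gene H2-D1 at 6.27, 4.92 and 13.6 CPM against 8.52 and 4.75 CPM. In all 3 genes P301S replicate 3 was the highest mouse and knockout replicate 2 the lowest, with knockout replicate 1 second. The microglia gate held 270, 355 and 741 nuclei in the P301S mice and 551 and 197 in the knockout mice. This count ranked the same mice highest, second and lowest, but knockout replicate 2 also had the fewest kept nuclei. As a share of kept nuclei the gate held 2.42%, 2.91% and 6.80% against 5.26% and 2.68%, with P301S replicate 1 lowest. The part of microglial RNA in these levels was not tested.

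Cdkn1a, a cell-cycle inhibitor on the same list, likewise rested on P301S replicates 1 and 3, at 8.09, 1.64 and 18.2 CPM against 1.79 and 3.23 CPM. Tma16, a ribosome assembly factor, kept its groups apart, at 40.6, 23.6 and 27.5 CPM against 19.7 and 13.3 CPM (log2 difference -0.85, edgeR adjusted p = 0.332). Fxyd7, a regulator of the sodium pump, was on the other side, at 3.03, 3.98 and 4.02 CPM against 6.46 and 7.22 CPM (0.87).

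Lipid genes in oligodendrocytes were balanced, with 26 of 54 members positive (median -0.03), 4 higher at an unadjusted p under 0.05 and 3 lower, counts near the 6.09% and 6.28% of all genes. Of those on the higher side, Srebf2, the factor that switches on cholesterol synthesis, was at 127, 136 and 130 CPM against 147 and 164 CPM (log2 difference 0.24). Fasn, the fatty acid synthase, was at 16.2, 13.3 and 18.0 CPM against 19.4 and 22.03 CPM (0.39), and Soat1, which esterifies cholesterol, was also among them.

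Those on the lower side act in sphingolipid synthesis, fatty acid elongation and cholesterol export. Degs1 was at 19.0, 24.5 and 26.2 CPM against 14.6 and 12.7 CPM (-0.77). Elovl1 was at 23.2, 21.3 and 25.1 CPM against 17.6 and 17.5 CPM (-0.40). Abca1 was at 109, 113 and 121 CPM against 96.3 and 97.8 CPM (-0.24).

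Receptors for microglial ligands had 29 of 46 members positive in oligodendrocytes (median 0.16), with Lrp8, Lrp1, Nrp1 and Sirpa among those higher, as was Gas6, a secreted ligand that the list also holds, and Il1rap and Ifngr1 lower at an unadjusted p under 0.05. Lrp1, an endocytic receptor that also takes up tau, was at 54.0, 38.3 and 36.2 CPM against 60.9 and 72.9 CPM (log2 difference 0.65). Il1rap, the shared subunit of the interleukin-1 and interleukin-33 receptors, was at 577, 545 and 557 CPM against 443 and 441 CPM (-0.34). Ifngr1, a subunit of the interferon-γ receptor, was at 7.08, 8.08 and 6.52 CPM against 5.63 and 3.42 CPM (-0.65). In the latter 2 genes the knockout mice lay below all P301S mice, and edgeR's adjusted p was 0.361 and 0.369. Of the 46 members, 6 passed an unadjusted p of 0.05 on the higher side and 2 on the lower side. The shares among all genes tested were 6.09% and 6.28%. The knockout mice stood above every P301S mouse in 11 members and below in 3, orders found in 16.0% and 16.3% of all genes.

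Interferon-response genes had 18 of 29 positive (median 0.04, but -0.41 without knockout replicate 1 and 0.30 with age as a covariate) and 0 past an unadjusted p of 0.05 in oligodendrocytes. Adhesion and signalling genes had 28 of 49 positive (median 0.04), chaperones 18 of 45 (-0.07), tau genes and kinases 24 of 39 (0.05) and clock genes 11 of 20 (0.05). Arntl, a positive arm of the clock, was at 59.6, 50.9 and 44.0 CPM against 64.2 and 72.4 CPM (log2 difference 0.41), and its repressor Ciart at 9.91, 9.83 and 15.3 CPM against 8.93 and 6.84 CPM (-0.55). Mitochondrial transcripts were positive in 13 of 13 (median 0.24, but 0.035 without knockout replicate 1 and 0.44 with age as a covariate), respiratory-chain genes in 25 of 55 (-0.02) and ribosomal protein genes in 27 of 55 (-0.01).

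**Figure D5:**
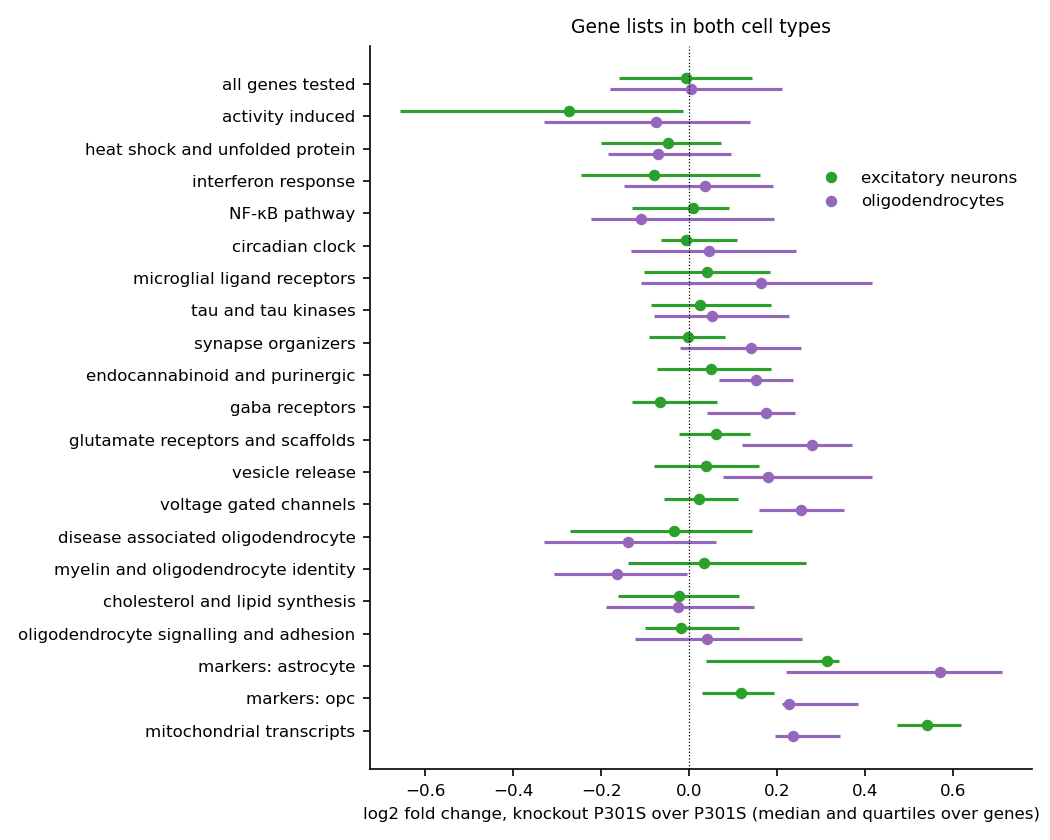
Median (point) and quartiles (line) of the log2 difference between knockout and P301S mice over the tested members of each list, in excitatory neurons (green) and oligodendrocytes (purple). Activity-induced genes in neurons (-0.27) and myelin genes in oligodendrocytes (-0.16) lie left, and astrocyte markers (0.31 and 0.57) and mitochondrial transcripts (0.54 and 0.24) right.

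The difference between the cell types was tested directly. In an edgeR model of cell type by genotype, 0 of 16408 genes had a knockout difference that differed between oligodendrocytes and excitatory neurons (0.0%), and 976 had an unadjusted p under 0.05, 714 of them with the more positive difference in oligodendrocytes. The count was 189 with doublets left out and 35 with no low-count filter.

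Some genes differed in the same direction in both cell types, which were drawn from the same libraries. Gm42418, a transcript that lies over the ribosomal RNA repeat on chr17:39846958-39848788, was at 675, 736 and 839 CPM in P301S excitatory neurons and at 1316 and 1455 CPM in knockout ones (log2 difference 0.89), and at 1451, 1412 and 1513 CPM against 2739 and 3310 CPM in oligodendrocytes (1.05). Its neighbour Gm26917 and the gene Cmss1 differed in the same direction, with Cmss1 at 113, 120 and 131 against 183 and 217 CPM in neurons and at 183, 174 and 199 against 380 and 510 CPM in oligodendrocytes. None of the 3 was called over all 11 mice with doublets kept (edgeR adjusted p from 0.332 to 0.578). With doublets left out all 3 were among the 205 oligodendrocyte calls, at an adjusted p of 0.0476 for Gm42418, 0.0477 for Gm26917 and 0.0496 for Cmss1. All 3 were also called in both cell types in the floxed line alone (edgeR adjusted p = 0.00782 in neurons and 0.00235 in oligodendrocytes for Gm42418) and with the replicate block on that line, and they were the 3 oligodendrocyte genes called in each of those fits. The non-transgenic mice spanned 1059 to 2074 CPM of Gm42418 in oligodendrocytes, so that it varied widely between libraries of intact Ikbkb too.

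Manf, a secreted factor of the unfolded-protein response, was at 23.5, 24.5 and 20.4 CPM against 16.9 and 18.6 CPM in excitatory neurons (-0.36) and at 30.1, 28.8 and 27.0 CPM against 20.3 and 21.8 CPM in oligodendrocytes (-0.44). Hsp90aa1 in oligodendrocytes was at 32.5, 32.2 and 42.0 CPM against 24.1 and 28.5 CPM (-0.45), beside its -0.49 in neurons. Xist, transcribed from the inactive X chromosome, was at 973, 1369 and 1307 CPM against 894 and 749 CPM in neurons (-0.57) and at 1113, 1378 and 1324 CPM against 1003 and 813 CPM in oligodendrocytes (-0.49). These levels match the female label of all 5 mice, although the study's methods describe male mice for RNA-seq.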

How the data were processed

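Single-nucleus RNA-seq of the cortex was performed by the authors with a droplet-based 3′ kit, and the deposited matrices hold raw UMI counts per gene and barcode, unfiltered for doublets in the files used here. Per the submitters' processing notes, Cell Ranger 3.1.0 and the mm10 genome were used, with Seurat 3.0 downstream, and the methods state that reads on unspliced RNA were counted. All 11 libraries, one mouse each, were read in full, and 0 columns were unmapped.

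Nuclei were gated by the rules given in the report, which depend on depth, and raw counts were summed per mouse and cell type. Sums were tested in R 4.3.3 with the quasi-likelihood test of edgeR 4.0.16 (TMM scaling, filterByExpr, all 11 mice in the fit so that groups share an estimate of the spread). Calls required an adjusted p (Benjamini-Hochberg) below 0.05 and a log2 difference of 0.1 or more in size. CPM values of single genes are TMM-scaled, and summed marker levels are plain CPM. Shares were compared by exact permutation over the 10 splits of 3 against 2 mice. The scripts were tested on simulated data.

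The members, lists and tests were chosen with earlier results of these data known. Named genes were the 5 of lowest p per direction with at least 10 CPM, the 2 of lowest p in each list, and Ikbkb, Cx3cr1, Mapt, Prnp, Serpina3n, C4b, H2-D1 and Mbp; other genes were named after their values were seen, and a few genes that the rule selects are not reported here. Alternatives were DESeq2 1.42.0, its size factors, no low-count filter, stricter gates, removal of the nuclei with the highest Scrublet scores (scanpy 1.11.5; 0.8% per 1000 barcodes), thinned sums, layer subsets, age or line as covariates, fewer mice and a replicate block. Added after seeing the data were doublet removal with strict gates, a cap at 2 times the median UMIs, a wider neuronal gate, thinned shares and a crossed block. Gene positions and promoters are from mm10 (GENCODE, and RefSeq on GRCm38.p6).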

Additional observations from a re-analysis of the deposited data

Results flagged for a closer look

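Among the 4 non-transgenic mice, 1 stood apart from the others for Ep300 in excitatory neurons, where its gap to the nearest mouse was 0.864 of the group's range, and 1 for Prnp, where the gap was 0.843. These were 2 of 85 groups examined (2.35%), and chance alone sets apart about 1 group in 20. Both concern the reference mice and not the knockout comparison.

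Xaf1, an interferon-induced gene, differed in sign between the cell types, with every knockout mouse below the P301S mice in oligodendrocytes and above them in excitatory neurons. In oligodendrocytes it was at 30.3, 33.1 and 41.9 CPM in the P301S mice and at 30.0 and 27.4 CPM in the knockout mice, and in excitatory neurons at 2.21, 1.88 and 2.00 CPM against 2.22 and 2.36 CPM, so that the groups nearly met in both. Its log2 difference in oligodendrocytes minus that in excitatory neurons was -0.46. It was set apart by the order of the mice alone. In the edgeR model of cell type by genotype its difference between the cell types was not called (adjusted p = 0.843).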

How the results depend on the processing

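Counts of called genes moved under few alternatives. In excitatory neurons the count of 0 became 1 with DESeq2, 10 in the floxed line alone, and 0 to 1 when each mouse was left out, the 1 appearing without knockout replicate 1. In oligodendrocytes it became 205 with doublets left out, 320 with no low-count filter, 3 in the floxed line alone and 0 to 2 with each mouse left out, the 2 again without knockout replicate 1. For the difference between cell types it became 189 with doublets left out, 35 with no low-count filter and 0 to 1 with each mouse left out, the 1 without knockout replicate 1. The causes were not tested.

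The title numbers were not shown to pair the mice: same-numbered P301S and knockout mice of the floxed line deviated from their group means with a correlation of -0.10 in excitatory neurons and -0.13 in oligodendrocytes. The other pairs of groups in the block fit gave -0.06 to 0.26, the 0.26 between knockout and non-transgenic mice in excitatory neurons. With the replicate block on that line, 20 and 3 genes were called, and with the crossed pairing 1 and 4.

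The share of excitatory neurons differed by 4.93 to 11.4 percentage points (knockout minus P301S) with each mouse left out. For the share of oligodendrocytes the range was -3.73 to 0.0429, reversed without P301S replicate 2.

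Of 75 named genes, 66 kept their sign under all alternatives. Many were named for a low p in these same mice, which the alternatives reuse. A kept sign is therefore partly set by that choice. Gabra5 reversed to 0.18 in upper-layer nuclei, Kctd12 to 0.031 in the wider gate, Ikbkb in neurons to -0.091 in upper-layer nuclei and Xaf1 to 0.083 with age. Ikbkb in oligodendrocytes was -0.12 without doublets, -0.032 with strict gates, -0.046 at equal depth, -0.067 with both doublets and gates, -0.085 under the UMI cap, and -0.063 to 0.061 with each mouse left out. Cx3cr1 in oligodendrocytes was -1.01 with strict gates, -0.90 with doublets also out and -0.31 to 0.50 with each mouse left out. The strict gates limit the UMIs of Cx3cr1 itself, so that its values there are partly set by the gate. With the line as a covariate, the floxed line alone, age, the block, the crossed block, and without P301S replicate 3 or knockout replicate 2, in that order, Serpina3n was 0.28, 0.64, 0.11, 0.34, 0.65, 0.60 and 0.42, C4b 0.96, 1.13, 0.23, 0.75, 0.91, 1.11 and 0.55, and H2-D1 0.013, 0.31, 0.45, 0.25, 0.31, 0.30 and 0.040. Without knockout replicate 1 they were at their lowest, -1.84, -2.43 and -0.80. H2-D1 was 0.068 with doublets out and strict gates.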

Other observations

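The genes at an unadjusted p under 0.05 differed in kind between the directions. In excitatory neurons, 389 of the 797 genes on the lower side were not protein-coding (48.8%), among them Pcsk2os2, Srrm4os and Gm26904, against 8.51% on the higher side and 16.7% of all genes tested. In oligodendrocytes the shares were 22.4% on the lower side, 4.34% on the higher side and 10.8% of all genes. The median genomic length was 15222.5 bases for higher and 18213 for lower genes in excitatory neurons, against 25893 for all, and 39432 and 29539.5 against 28388 in oligodendrocytes. These are descriptions of genes that were not called, without a test. The depth of the nuclei, the level of Gm42418 and the mitochondrial transcripts differed between the genotypes in the same mice, and their part in this split was not tested.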
